A study of Homo sapiens with 9 samples.

Results

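NF-kB is a family of dimeric transcription factors that is held in check by a family of inhibitors, and 10 genes of this system were followed in undifferentiated Caco-2 cells (uCaco-2). Caco-2 is a human colon adenocarcinoma line used as a model of the intestinal epithelium. The members were the entries of the deposited count table with the symbols NFKB1, NFKB2, REL, RELA, RELB, NFKBIA, NFKBIB, NFKBIE, NFKBIZ and TNFAIP3, that is, 5 subunit genes and 5 genes of inhibitors and negative regulators. All 10 were found among 60591 symbols, and all 10 passed the expression filter that left 15944 genes for testing. The cells spent 24 h in medium containing CoCl2 at 300 μM, in medium containing an oxyquinoline derivative (OD) at 5 μM, or in medium with neither compound (control). DMSO made up 0.5% of the medium in all 3 conditions, and each condition had 3 biological replicates. Both compounds stabilize hypoxia-inducible factor, and the comparisons ask how the NF-kB genes differed after each of them. A single cell line, 1 dose of each compound and 1 time point were measured, and p-values describe the spread between these replicates only.

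Dimers of RELA, REL or RELB with the processed products of NFKB1 and NFKB2 bind kappaB sites in DNA. In resting cells, the classical inhibitors encoded by NFKBIA, NFKBIB and NFKBIE keep such dimers in the cytoplasm until the IKK kinase complex marks the inhibitors for degradation, and the released dimers then activate several of their own inhibitors in a feedback loop. RELB and NFKB2 form the non-canonical branch, NFKBIZ encodes an atypical nuclear relative of the inhibitors, TNFAIP3 encodes a ubiquitin-editing enzyme that turns the upstream signal off, and in the intestinal epithelium the whole system is known for its part in barrier defence and inflammation.

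The promoters of the members are shown first because several NF-kB genes are known to be controlled by NF-kB itself. RefSeq sequences on GRCh38.p14 covered 8 of the 10 members with 14 windows, each running from 250 bases before to 50 bases after a transcript start. RELB and NFKBIE had no window. Both strands were searched for the kappaB consensus, and overlapping matches were merged. A match was found in 9 of the 14 windows (64.3%), in 7 of the 8 members, and in 5.91% of the 35116 windows of this length over all genes. RELA was the member without one. The core of the hypoxia response element, taken as ACGTG or GCGTG on either strand, was found in 8 of the 14 windows (57.1%) and in 48.4% of all windows. A match is a description of the letters and no measured binding site. All kappaB matches of the members are printed here in capitals with 9 bases on each side, in the direction of the gene, to show how alike they are.
NFKB1, chr4:102501301-102501328, plus strand: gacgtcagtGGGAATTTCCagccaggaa
NFKB2, chr10:102394462-102394490, plus strand: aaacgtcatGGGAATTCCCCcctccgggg
NFKB2, chr10:102394491-102394518, plus strand: ggccgagaaGGGGCTTTCCcggccctga
NFKB2, chr10:102395520-102395547, plus strand: acccccaccGGGGCTTCCCggattctcc
NFKB2, chr10:102395675-102395702, plus strand: ggtattttcGGGACTTTCCtaagctgct
REL, chr2:60881518-60881546, plus strand: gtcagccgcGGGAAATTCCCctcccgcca
NFKBIA, chr14:35404812-35404839, minus strand: gactggcttGGAAATTCCCcgagcctga
NFKBIB, chr19:38899932-38899960, plus strand: ggcgtggtgGGGAATTTCCCgcagggcgg
NFKBIZ, chr3:101827758-101827785, plus strand: ttttggtctGGGAATTTCCagtgtgcag
NFKBIZ, chr3:101849266-101849293, plus strand: cgcgctgtcGGGGTTTCCCggtgaaggg
TNFAIP3, chr6:137867183-137867210, plus strand: cgtgactttGGAAAGTCCCgtggaaatc
TNFAIP3, chr6:137867195-137867222, plus strand: aagtcccgtGGAAATCCCCgggcctaca
The run GGGAATTTCC occurred before NFKB1, NFKBIB and NFKBIZ, and REL and NFKBIA had it on the opposite strand. These matches began 49 bases before the start of NFKB1, 47 bases before REL (merged with an overlapping match), 28 bases before NFKBIB, 81 bases before NFKBIA and 223 bases before NFKBIZ.

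**Figure D1:**
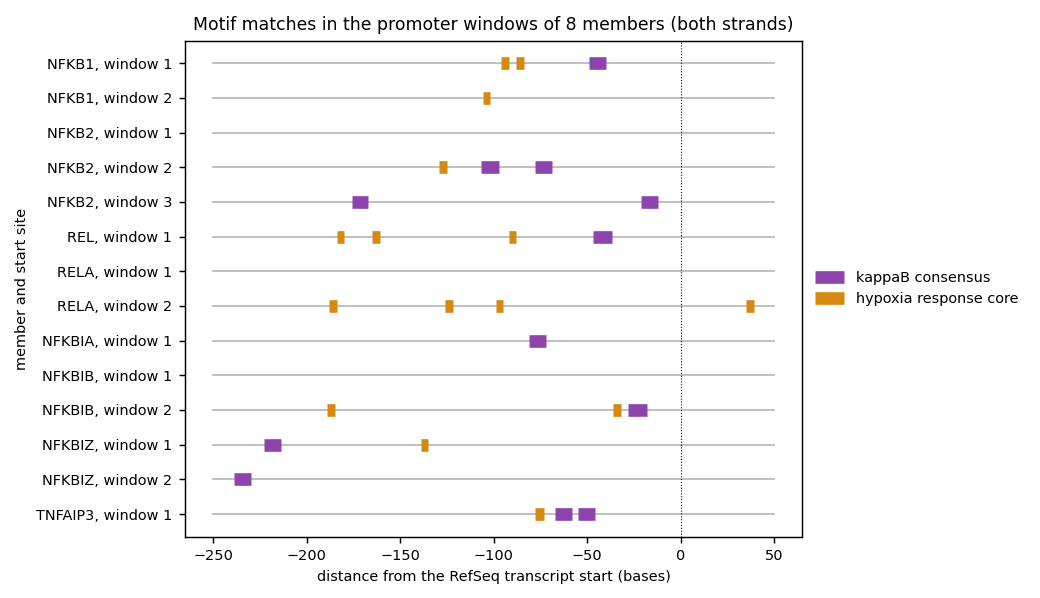
Matches to the kappaB consensus and to the core of the hypoxia response element in the 14 RefSeq promoter windows of 8 members, by distance in bases from the transcript start. Of these windows, 9 hold a kappaB match and 8 a hypoxia core match, and the RELA windows hold no kappaB match.

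The 250 bases upstream of a start are given for NFKBIZ and NFKBIA, the members with the largest rises after CoCl2, again with the kappaB match in capitals. NFKBIZ had another start, whose kappaB match is among those above. Which start its reads came from was not tested.
NFKBIZ, chr3:101827740-101827989, plus strand: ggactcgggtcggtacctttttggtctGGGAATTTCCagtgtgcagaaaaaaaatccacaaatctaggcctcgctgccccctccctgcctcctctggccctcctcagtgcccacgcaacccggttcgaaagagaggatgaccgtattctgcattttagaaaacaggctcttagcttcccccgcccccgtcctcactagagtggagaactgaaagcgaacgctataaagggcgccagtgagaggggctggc
NFKBIA, chr14:35404750-35404999, minus strand: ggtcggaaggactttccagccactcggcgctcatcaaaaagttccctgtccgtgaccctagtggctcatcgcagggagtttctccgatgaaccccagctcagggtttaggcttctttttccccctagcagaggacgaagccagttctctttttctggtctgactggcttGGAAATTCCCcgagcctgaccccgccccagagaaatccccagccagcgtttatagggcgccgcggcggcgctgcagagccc

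The 9 libraries held 15998136 to 24209427 counts, and the members had from 123 counts (NFKBIE, CoCl2) to 3351 counts (TNFAIP3, OD) in a library. Levels are in CPM, counts scaled to 1000000 per library with the TMM factors of edgeR, which correct for differences in composition. The factors were 0.770 to 0.795 for CoCl2 and 1.11 to 1.15 for the other 6 libraries. Of 10 colon epithelial markers 9 were above 1 CPM in each condition, and CDX1 had no count in any library. After CoCl2, 7 of the 9 tested rose, by log2 fold changes of at most 0.49, which is less than the median of all genes moved when libraries were scaled by size alone. VIL1, a microvillus protein, fell from 612.7 ± 18.3 to 112.2 ± 6.28 CPM (SD, n = 3) and KRT20, a keratin of differentiated epithelium, from 4.49 ± 0.396 to 1.74 ± 0.978 CPM. After OD 4 rose and 3 fell, none of them called by edgeR. The summed level of the list was 11105 to 11646 CPM in control, 13310 to 14266 CPM in CoCl2 and 10569 to 11123 CPM in OD libraries. The 6 leukocyte markers summed to 37.5 to 43.4 CPM in control, 54.7 to 58.8 CPM in CoCl2 and 35.6 to 39.1 CPM in OD libraries, of which LYZ made up most and CD14 was the only other one above 1 CPM, while the defining marker PTPRC had at most 3 counts in a library and none in control libraries. The 6 fibroblast and endothelial markers, 4 of them above 1 CPM in each condition, summed to 25.2 to 29.3 CPM, 20.7 to 23.4 CPM and 33.2 to 35.1 CPM in the same order, with DCN at 0 in control libraries. The 4 were not the same genes throughout. After CoCl2, PDGFRB fell from 4.79 ± 0.534 to 0.932 ± 0.287 CPM, and VWF rose from 0.373 ± 0.0774 to 1.16 ± 0.141 CPM. The part of these shifts in the results was not tested. In bulk RNA, fewer cells with a transcript cannot be told apart from less of it per cell.

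After CoCl2, 3 of the 5 inhibitor genes (NFKBIZ, NFKBIA and NFKBIB) and 1 subunit gene (RELA) were upregulated more than 2-fold, and after OD no member changed that much. Changes were tested by the quasi-likelihood method of edgeR on all 9 libraries, and p-values were adjusted over the 15944 genes. A gene rose or fell where its adjusted p was below 0.05, and it was called where its log2 fold change also exceeded 1 in size. After CoCl2, 6 members rose, 3 fell and RELB did not pass, so 9 of 10 passed, where 83.2% of all genes did, 40.4% higher and 42.8% lower. The 4 called members, all higher, are 40% of the list, near the 43.2% of all genes called (19.9% higher and 23.4% lower). After OD, 7 members rose, 2 fell and NFKBIZ did not pass, so again 9 of 10 passed, against 65.6% of all genes (32.3% higher and 33.3% lower). By edgeR no member was called after OD, while 9 had an unadjusted p under 0.05 and DESeq2 called 0 too. Of all genes 13.3% were called, 9.09% higher and 4.16% lower. The members' median log2 fold change was 0.77 after CoCl2 and 0.31 after OD, beside -0.049 and -0.010 over all genes.

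CoCl2 and OD were set against the same control libraries, so they were also compared directly. Here 6 members were higher and 4 lower after CoCl2 than after OD, so 10 of 10 passed, against 83.5% of all genes (40.2% higher and 43.2% lower). The called members were NFKBIA, NFKBIB and NFKBIZ, higher after CoCl2, and RELB and NFKBIE, lower. Scaled by library size alone, NFKBIA (0.66) and NFKBIB (0.95) were under the fold threshold and TNFAIP3 (-1.12) passed it, so 4 were called. The 5 called with TMM are 50% of the list, where 41.3% of all genes were called, 17.5% higher and 23.8% lower. Scaling by library size alone moved the median over all genes after CoCl2, on the log2 scale, from -0.049 to -0.55, and the members moved with it. With that scaling 3 members were called after CoCl2, NFKBIZ higher and NFKB1 and NFKBIE lower, so that 33.3% of the called members were higher in place of 100%. The shift was shared by the whole table. Of all genes 7672 were then called in place of 6891, and 23.9% of them were higher in place of 46.0%.

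**Figure D2:**
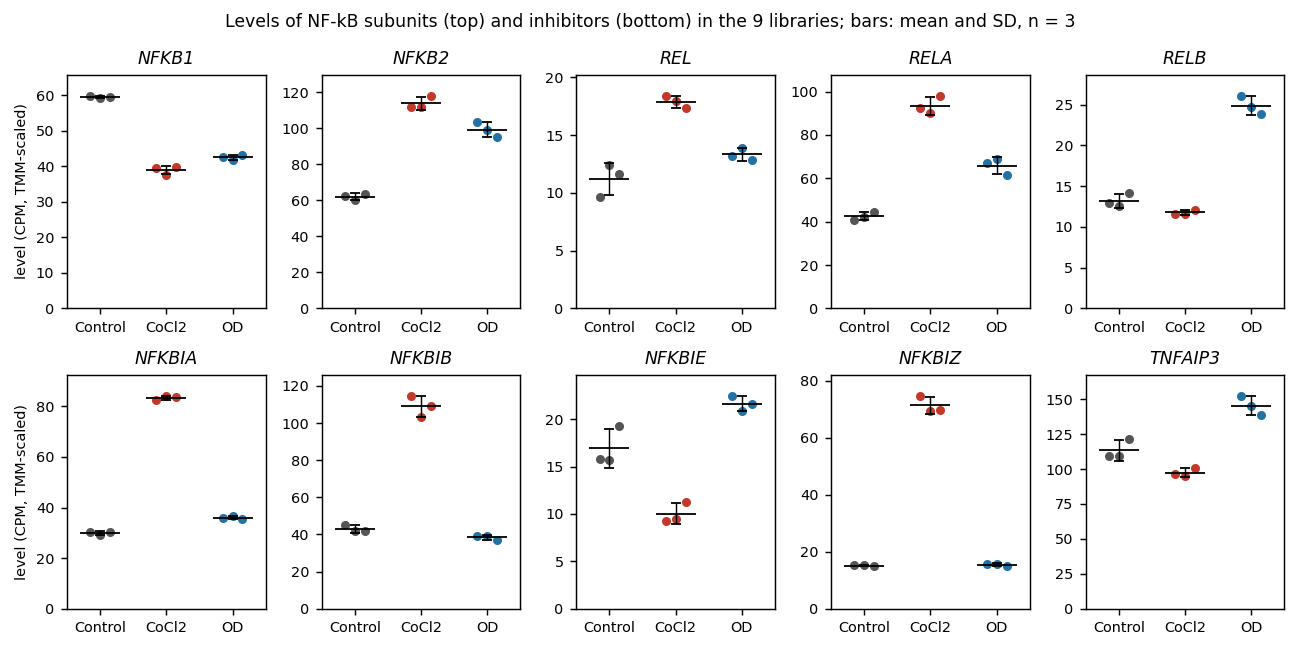
Level of each member in CPM in the 9 libraries, 1 point per library, with the mean and SD of each condition (n = 3). NFKBIA, NFKBIB and NFKBIZ lie far above control after CoCl2 and near it after OD, while RELB, NFKBIE and TNFAIP3 are highest after OD.

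Among the subunits, RELA carries the main activation domain of the canonical dimer. The gene (chr11:65653599-65663090 on the minus strand, GRCh38) had 40.9, 42.2 and 44.7 CPM in the control libraries, 92.3, 90.2 and 98.1 in the CoCl2 libraries and 66.9, 68.9 and 61.3 in the OD libraries. The conditions did not overlap, with CoCl2 highest and control lowest. RELA rose after CoCl2 by a log2 fold change of 1.14 (standard error 0.055, adjusted p = 2.1e-28) and after OD by one of 0.63 (standard error 0.055, adjusted p = 1.004e-15). It was higher after CoCl2 than after OD by 0.51 on the log2 scale, but when libraries were scaled by size alone this became -0.037.

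NFKB1 and NFKB2 encode the precursors of the DNA-binding partner subunits. NFKB1 (chr4:102501330-102617302 on the plus strand) had 59.9, 59.2 and 59.6 CPM in the control libraries, 39.6, 37.6 and 39.8 in the CoCl2 libraries and 42.7, 41.9 and 43.3 in the OD libraries. Every treated library was below every control library. The gene fell after CoCl2, by a log2 fold change of -0.61 (standard error 0.056, adjusted p = 2.245e-15), and after OD, by one of -0.48 (standard error 0.054, adjusted p = 4.861e-12). The compounds differed little, by -0.13 (standard error 0.058, adjusted p = 0.04061), and this difference did not pass with DESeq2, with RLE scaling or without any one of CoCl2 replicates 1 and 2 and OD replicates 1 and 3 (adjusted p = 0.06462 to 0.177). NFKB2 (chr10:102394110-102402524 on the plus strand) went the opposite way and had 62.5, 59.96 and 63.6 CPM in the control libraries, 111.7, 111.5 and 117.9 in the CoCl2 libraries and 103.3, 98.8 and 95.2 in the OD libraries. Every treated library was above every control library. The log2 fold change of NFKB2 was 0.88 (standard error 0.050, adjusted p = 6.995e-25) for CoCl2 and 0.68 (standard error 0.049, adjusted p = 3.237e-19) for OD. The difference between the compounds was 0.20, but -0.35 when libraries were scaled by size alone, and 0.067 (adjusted p = 0.1787) with upper-quartile scaling.

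RELB is the non-canonical partner of the NFKB2 product. The gene (chr19:45001461-45038192 on the plus strand) had 12.9, 12.6 and 14.1 CPM in the control libraries, 11.6, 11.6 and 12.1 in the CoCl2 libraries and 26.1, 24.7 and 23.9 in the OD libraries. OD libraries stood above the other 6, and CoCl2 libraries lay just under control. RELB rose after OD by a log2 fold change of 0.92 (standard error 0.077, adjusted p = 1.313e-16). For CoCl2 the value of -0.16 (95% interval -0.34 to 0.023, adjusted p = 0.101) did not pass, but with library size alone it was -0.66 and passed (adjusted p = 5.448e-09), as it did with upper-quartile scaling (-0.26, adjusted p = 0.007572) and with either other filter (adjusted p = 0.04612 and 0.04846). Between the compounds the difference was -1.08 (standard error 0.081, adjusted p = 4.727e-19).

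REL, whose product is best known from lymphoid cells, had few counts. The gene (chr2:60881491-60931612 on the plus strand) had 9.68, 12.4 and 11.6 CPM in the control libraries, 18.4, 17.95 and 17.4 in the CoCl2 libraries and 13.2, 13.9 and 12.9 in the OD libraries. CoCl2 libraries were highest, and the gap between control and OD libraries was narrow. REL rose after CoCl2 by a log2 fold change of 0.67 (standard error 0.089, adjusted p = 7.587e-10) and after OD by one of 0.25 (standard error 0.090, adjusted p = 0.01311). With library size alone the rise after CoCl2 was 0.16 and did not pass (adjusted p = 0.09197), and the difference from OD turned from 0.42 to -0.13. The small rise after OD did not pass with DESeq2 (adjusted p = 0.06609), without control replicate 1 (log2 fold change 0.17, edgeR adjusted p = 0.1257) or without OD replicate 2 (0.22, adjusted p = 0.06172). Another gene on the same strand shares 33.3% of the annotated exonic bases of REL, so its counts are uncertain, while for the other members this share was at most 3.29%.

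Among the inhibitors, NFKBIZ had the largest change of the 10 members. Its product acts in the nucleus and can also assist transcription. The gene (chr3:101827991-101861022 on the plus strand), with the sequence upstream of a start printed above, had 15.2, 15.2 and 14.98 CPM in the control libraries, 74.6, 69.5 and 69.8 in the CoCl2 libraries and 15.8, 15.5 and 15.1 in the OD libraries. CoCl2 libraries stood far apart, and control and OD libraries overlapped. NFKBIZ rose 4.704-fold after CoCl2, a log2 fold change of 2.23 (standard error 0.065, adjusted p = 2.763e-40). For OD the log2 fold change was 0.033 (95% interval -0.12 to 0.19, adjusted p = 0.7244). The difference between the compounds was 2.20 (standard error 0.063, adjusted p = 2.251e-40).

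NFKBIA encodes the prototype of the classical inhibitors and a feedback target of NF-kB. The gene (chr14:35401079-35404749 on the minus strand) had 30.5, 29.1 and 30.4 CPM in the control libraries, 82.5, 84.04 and 83.6 in the CoCl2 libraries and 35.97, 36.6 and 35.5 in the OD libraries. The conditions did not overlap, and OD libraries were close to control. NFKBIA rose after CoCl2 by a log2 fold change of 1.48 (standard error 0.056, adjusted p = 4.976e-34) and after OD by one of 0.27 (standard error 0.059, adjusted p = 7.472e-05). The difference between the compounds was 1.21 (standard error 0.054, adjusted p = 2.683e-30).

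NFKBIB encodes a further classical inhibitor. The gene (chr19:38899700-38908893 on the plus strand) had 45.4, 41.8 and 41.8 CPM in the control libraries, 114.5, 103.3 and 109.4 in the CoCl2 libraries and 39.3, 39.4 and 37.1 in the OD libraries. CoCl2 libraries were highest and OD libraries lowest. NFKBIB rose after CoCl2 by a log2 fold change of 1.35 (standard error 0.054, adjusted p = 9.726e-33). After OD it fell slightly, with a log2 fold change of -0.15 (standard error 0.058, adjusted p = 0.01645), a small fall that did not pass with library size alone (-0.11, adjusted p = 0.07559), with upper-quartile scaling (-0.12, adjusted p = 0.05649) or with DESeq2 (adjusted p = 0.06201). It was also lost without control replicate 1 (-0.100, adjusted p = 0.1659) and without OD replicate 3 (-0.12, adjusted p = 0.08978). Between the compounds the difference was 1.4995 (standard error 0.054, adjusted p = 3.35e-35).

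NFKBIE is the remaining classical inhibitor gene, and after CoCl2 it moved against NFKBIA and NFKBIB. The gene (chr6:44258166-44265788 on the minus strand) had 15.8, 15.7 and 19.3 CPM in the control libraries, 9.27, 9.52 and 11.3 in the CoCl2 libraries and 22.4, 20.9 and 21.6 in the OD libraries. OD libraries were highest and CoCl2 libraries lowest, without overlap. NFKBIE fell after CoCl2 by a log2 fold change of -0.74 (standard error 0.095, adjusted p = 2.163e-10) and rose after OD by one of 0.36 (standard error 0.080, adjusted p = 7.85e-05). Between the compounds the difference was -1.10 (standard error 0.090, adjusted p = 2.009e-17).

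TNFAIP3 (chr6:137867214-137883314 on the plus strand) had 109.2, 109.03 and 121.7 CPM in the control libraries, 96.2, 94.95 and 100.9 in the CoCl2 libraries and 152.2, 145.4 and 138.7 in the OD libraries. As for NFKBIE, OD libraries were highest and CoCl2 libraries lowest. TNFAIP3 fell after CoCl2 by a log2 fold change of -0.22 (standard error 0.049, adjusted p = 5.862e-05) and rose after OD by one of 0.36 (standard error 0.047, adjusted p = 5.391e-10). The difference between the compounds was -0.58 (standard error 0.048, adjusted p = 2.569e-17). The means of RELB, NFKBIE and TNFAIP3 were thus ordered OD, control, CoCl2 from high to low, and those of NFKB2, REL, RELA and NFKBIA were ordered CoCl2, OD, control.

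**Figure D3:**
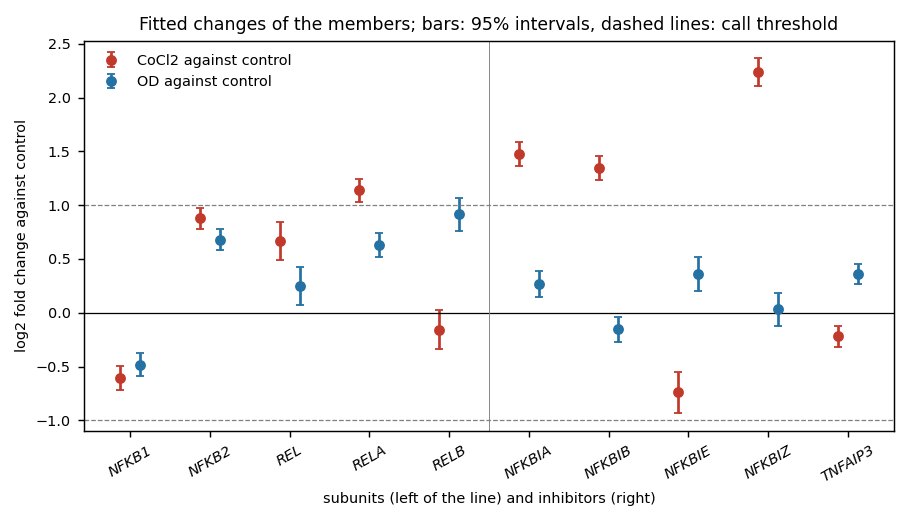
Log2 fold changes of the 10 members after CoCl2 (red) and after OD (blue) against control, with 95% intervals from the fit over 9 libraries and dashed lines at the call threshold of 1 in size. RELA, NFKBIA, NFKBIB and NFKBIZ exceed 1 after CoCl2, and no member exceeds 1 in size after OD.

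Without any fit, control and CoCl2 libraries did not overlap for 10 of 10 members, against 83.4% of all genes. For control and OD this held for 9 of 10 members, against 68% of all genes, and for CoCl2 and OD for 10 of 10, against 83.8%. An exact two-sided permutation test of log2 CPM cannot give a p under 0.1 with 3 libraries against 3, and it gave 0.1 for each of these and 0.3 for NFKBIZ after OD.

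Levels of different genes were compared as CPM per kb of the Ensembl canonical transcript (GENCODE release 44). The order depends on that length. For NFKB1 it was 4055 bases, while its annotated exonic bases together were 15679. The order with such lengths was not tested. In control libraries the members ranged from NFKBIB at 36.1 ± 1.72 CPM per kb (SD, n = 3) down to REL at 1.01 ± 0.126. In between came TNFAIP3 at 24.3 ± 1.56, NFKB2 at 20.6 ± 0.6198, NFKBIA at 19.2 ± 0.513, RELA at 16.9 ± 0.761 and NFKB1 at 14.7 ± 0.0877 CPM per kb. NFKBIE at 7.22 ± 0.873, RELB at 5.85 ± 0.368 and NFKBIZ at 3.86 ± 0.0382 CPM per kb followed, and no neighbours in this order overlapped. After CoCl2 the inhibitors NFKBIB (91.5 ± 4.71 CPM per kb) and NFKBIA (53.5 ± 0.494) led, and NFKB2 (37.7 ± 1.22) and RELA (37.1 ± 1.62) came next and overlapped. TNFAIP3 (20.9 ± 0.672), NFKBIZ (18.2 ± 0.729), NFKB1 (9.62 ± 0.297), RELB (5.22 ± 0.126), NFKBIE (4.28 ± 0.466) and REL (1.61 ± 0.0477 CPM per kb) followed without overlap. After OD, NFKB2 (32.9 ± 1.35 CPM per kb), NFKBIB (32.4 ± 1.11) and TNFAIP3 (31.2 ± 1.44) were highest, each overlapping the next. RELA (26.1 ± 1.56), NFKBIA (23.1 ± 0.355), RELB (11.01 ± 0.495), NFKB1 (10.5 ± 0.172), NFKBIE (9.23 ± 0.327), NFKBIZ (3.95 ± 0.09998) and REL (1.202 ± 0.0484 CPM per kb) followed, and of these only RELB and NFKB1 overlapped.

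Ratios of 2 members within a library do not depend on the scaling between libraries, and they are given per kb, without a test. Their size depends on the transcript lengths used, but their fold differences between conditions do not. NFKB2 stood at 1.401 ± 0.0367 of the level of NFKB1 (SD, n = 3) in control, 3.92 ± 0.11005 in CoCl2 and 3.13 ± 0.153 in OD libraries. That is 2.801-fold the control ratio for CoCl2 and 2.23-fold for OD, and the conditions did not overlap. NFKBIA stood at 1.14 ± 0.05699 of the level of RELA in control, 1.44 ± 0.06397 in CoCl2 and 0.887 ± 0.0418 in OD libraries. For NFKBIB the ratios to RELA were 2.13 ± 0.186, 2.47 ± 0.137 and 1.24 ± 0.0338 in the same order. Both inhibitors were thus higher against RELA after CoCl2 and lower after OD, without overlap with control. NFKBIE to RELA was 0.426 ± 0.0333 in control, 0.115 ± 0.00793 in CoCl2 and 0.354 ± 0.0262 in OD libraries. TNFAIP3 to RELA was 1.43 ± 0.0379, 0.562 ± 0.00657 and 1.195 ± 0.0491, and RELB to RELA was 0.345 ± 0.0119, 0.141 ± 0.00291 and 0.422 ± 0.0199. After CoCl2 these 3 ratios were 0.26995, 0.392 and 0.407 of their control values. REL to RELA was lower than control after both compounds, 0.7303 of the control ratio for CoCl2 and 0.775 for OD, and there the treated libraries overlapped.

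**Figure D4:**
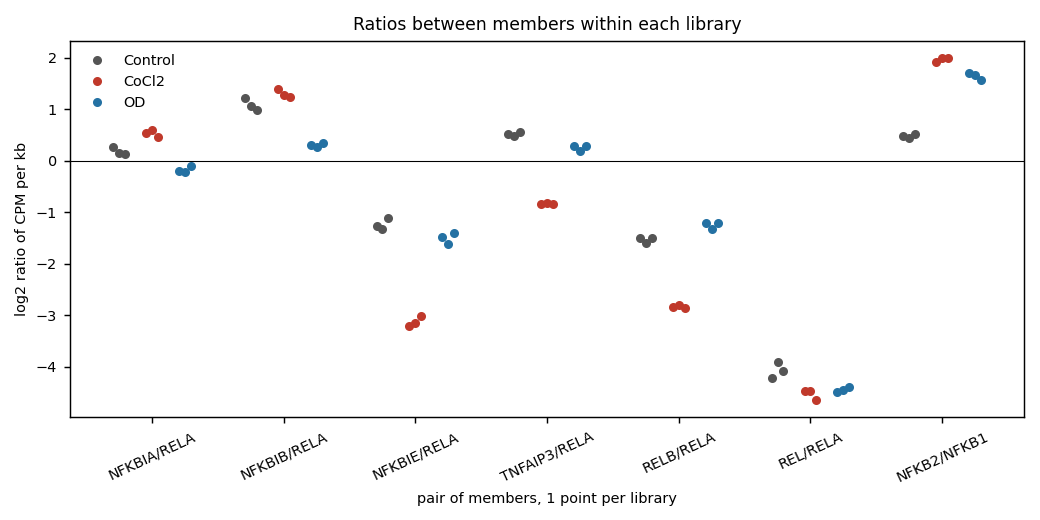
Log2 ratios of CPM per kb (vertical axis) for 7 pairs of members, 1 point per library, with control in grey, CoCl2 in red and OD in blue. NFKBIE, TNFAIP3 and RELB are lowest against RELA after CoCl2, and NFKB2 against NFKB1 is higher after both compounds than in control.

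The rest of the pathway was read from 4 lists. With library size as sole scaling, their medians after CoCl2 moved with that of all genes, to -0.62 for the IKK and canonical upstream genes, -0.76 for the non-canonical genes, 0.38 for the other regulators and -0.29 for the target genes, where the sign turned. After OD the IKK median turned to 0.0023. Of the 20 genes of the IKK complex and the canonical upstream signal, all tested, 8 rose and 10 fell after CoCl2, and 7 rose and 7 fell after OD. The median log2 fold changes were -0.11 and -0.038. After CoCl2 5 of 20 were called (43.2% of all genes), and after OD 0 by edgeR (13.3% of all genes), where 14 had an adjusted p under 0.05 (65.6% of all genes). TRAF6, a ubiquitin ligase of interleukin-1 and Toll-like receptor signalling, had 19.9 ± 0.556 CPM (SD, n = 3) in control and 66.3 ± 3.37 CPM in CoCl2 libraries (log2 fold change 1.73). IRAK1 and MYD88, a kinase and an adaptor of the same signalling, fell after CoCl2. IRAK1 went from 182.8 ± 1.93 to 51.4 ± 1.81 CPM (-1.83), and MYD88 from 43.8 ± 2.201 to 19.2 ± 0.775 CPM (-1.19). IKBKG, the regulatory subunit of IKK, had 5.18 ± 0.178 CPM in control and 18.02 ± 1.26 CPM in CoCl2 libraries (1.80), but a near-identical pseudogene makes its counts uncertain. TRADD, an adaptor of the tumor necrosis factor receptor, was lower after CoCl2 than after OD by -1.5012 (standard error 0.096, adjusted p = 2.298e-22) on the log2 scale.

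In the non-canonical list 4 of 6 genes were tested. By edgeR 0 were called after CoCl2 (43.2% of all genes) and 0 after OD (13.3% of all genes). TRAF3, which restrains this branch, fell after CoCl2 (-0.72) and after OD (-0.20), as did LTBR, a receptor, with log2 fold changes of -0.46 and -0.38. MAP3K14, the kinase of the branch, had log2 fold changes of 0.033 (adjusted p = 0.7354) and 0.11 (adjusted p = 0.2549).

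Of all genes 83.2% passed after CoCl2 (40.4% higher) and 65.6% after OD (32.3% higher). With library size alone, 7 of the other regulators rose and 2 fell after CoCl2. With TMM scaling, of 12 other regulators 11 were tested, 9 rose and 2 fell after CoCl2, and 7 rose and 2 fell after OD. The medians were 0.88 and 0.41, with 7 of 11 genes called after CoCl2 (43.2% of all genes) and 2 of 11 after OD (13.3% of all genes). TAX1BP1 and TNIP1 encode adaptor partners of the TNFAIP3 enzyme. TAX1BP1 had 170.2 ± 4.02 CPM in control, 1029.9 ± 40.6 CPM in CoCl2 and 259.01 ± 5.64 CPM in OD libraries, and TNIP1 had 73.9 ± 4.95, 223.3 ± 3.72 and 145.2 ± 5.62 CPM. Both rose after each compound, while TNFAIP3 itself fell after CoCl2. TANK, an adaptor of the IKK-related kinases, rose after CoCl2 from 24.9 ± 2.48 to 97.5 ± 3.81 CPM (1.96). Of these kinases, IKBKE fell after CoCl2 from 19.7 ± 1.94 to 5.44 ± 0.718 CPM (-1.84), and TBK1 was higher after CoCl2 than after OD by 1.23 on the log2 scale. COMMD1, which promotes the turnover of RELA, fell after CoCl2 from 29.5 ± 2.73 to 10.8 ± 1.21 CPM (-1.44). After OD the called genes were NFKBID, a nuclear relative of NFKBIZ, and CYLD, a deubiquitinase that dampens the signal. NFKBID rose from 3.96 ± 0.382 to 11.2 ± 0.766 CPM (1.48). CYLD rose from 12.9 ± 1.09 to 29.02 ± 1.6997 CPM (1.17). With TMM scaling both also rose after CoCl2. CYLD was called there too, at 34.007 ± 1.27 CPM (1.41), and was higher than after OD by 0.24 on the log2 scale. With library size alone that difference was -0.31 (edgeR adjusted p = 5.142e-05). NFKBID rose after CoCl2 by a smaller log2 fold change of 0.55, which was 0.042 with library size alone (edgeR adjusted p = 0.7799). With TMM scaling NFKBID was lower after CoCl2 than after OD by -0.93 on the log2 scale.

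Of 24 NF-kB target genes only 15 were tested, 7 rose and 4 fell after CoCl2, and 5 rose and 5 fell after OD. Over all genes 40.4% rose and 42.8% fell after CoCl2, and 32.3% and 33.3% after OD. Scaled by library size alone, the balance of the target genes after CoCl2 turned to 4 that rose and 7 that fell. The medians were 0.21 and -0.13. TNF and IL1B, the genes of inducing cytokines, were not tested, with at most 7 and 6 counts in a library. BIRC3, an inhibitor of apoptosis that acts in both branches, had 16.8 ± 1.82 CPM in control, 7.104 ± 1.95 CPM in CoCl2 and 43.3 ± 1.68 CPM in OD libraries. It fell after CoCl2 (-1.24) and rose after OD (1.36), with a difference between the compounds of -2.61 (standard error 0.10, adjusted p = 3.913e-22). ICAM1, an adhesion molecule, rose from 23.5 ± 0.587 CPM to 47.96 ± 2.07 CPM after CoCl2 and 49.4 ± 0.426 CPM after OD. Its log2 difference of CoCl2 from OD was -0.045, but -0.59 with library size alone (edgeR adjusted p = 4.47e-13). CCL20, an epithelial chemokine, fell after CoCl2 from 8.22 ± 1.19 to 2.39 ± 0.638 CPM (-1.80), and IER3, an early response gene, rose from 16.8 ± 0.653 to 44.1 ± 0.885 CPM (1.39). TNFAIP8 and CD83 rose after OD, by log2 fold changes of 1.54 and 1.21. After CoCl2 they rose less, by 0.46 and 0.63. With library size alone these CoCl2 values were -0.051 and 0.13 and did not pass (edgeR adjusted p = 0.6371 and 0.53). CXCL8, a neutrophil chemokine, had 3 to 4 counts in control, 19 to 41 in CoCl2 and 3 to 9 in OD libraries.

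**Figure D5:**
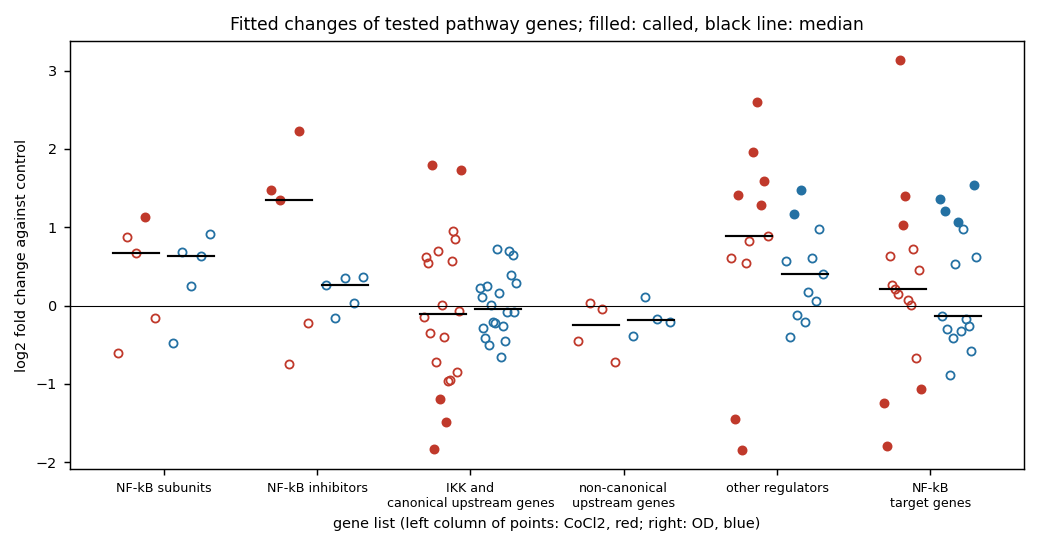
Log2 fold changes against control of the tested genes of the members and the pathway lists after CoCl2 (red, left) and after OD (blue, right), 1 point per gene, filled where called, with the median of each list as a black line. The other regulators have medians of 0.88 and 0.41, and the IKK and canonical upstream genes lie on both sides of 0.

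For NFKBIZ and NFKBIB, the members with the widest range of mean log2 CPM over the conditions, the most alike of 13428 genes were sought by the root mean square distance of centred log2 CPM over the 9 libraries. They were SIRT7, PTPN23 and TTC1 for NFKBIZ, at distances of 0.0479, 0.0484 and 0.0486. For NFKBIB they were TLE3, PDRG1 and BCAP31, at 0.0422, 0.0469 and 0.049997. The 9 points are 3 conditions of 3 libraries, and the likeness is a description only.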

How the data were processed

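Stranded mRNA libraries of uCaco-2 were sequenced with single-end reads of 75 nucleotides. Per the submitters' processing notes, FastQC 0.11.9, cutadapt 2.10 and STAR 2.7.5b were used with GRCh38 and a GENCODE annotation, and the authors deposited raw counts per gene symbol without normalization. The counting tool and its strand setting are not given in the sources used here, so overlapping genes and near-identical copies are uncertain.

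From these counts edgeR 4.0.16 (R 4.3.3) gave TMM factors, its expression filter and a robust quasi-likelihood fit with 1 mean per condition over 9 libraries, with Benjamini-Hochberg adjustment. The thresholds were an adjusted p of 0.05 and a log2 fold change of 1 in size. Alternatives were DESeq2 1.42.0, other scalings and filters, a replicate block and each library left out. The 6 libraries of a comparison alone, glmTreat and the adjusted p alone were also tried. The authors used an earlier version of DESeq2. Replicates differed beyond sampling noise (chi-square per degree of freedom 1.82 to 3.32), so all were kept. On simulated counts for CoCl2 against control, 200 genes above 1 CPM were changed, each by a log2 fold change beyond the threshold of 1 in size. Of these, edgeR recovered 200 among 15479 genes and called 1 unchanged gene, and DESeq2 recovered 198 among 15944. In the measured counts 43.2% of all genes were called after CoCl2. Recovery with that many changed genes, or of changes near the threshold, was not tested. Coordinates and transcript lengths came from GENCODE release 44 on GRCh38.

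The members and lists were chosen with earlier results of these data known. Besides the members, the text names, per list and comparison, up to 3 rises and up to 3 falls with the largest fitted change among those called and averaging 1 CPM or more, and the 3 genes most alike to each of 2 members. LTBR, TRAF3, MAP3K14, CXCL8, TNF, IL1B, VIL1, KRT20, PDGFRB and VWF were named after their values were seen.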

Additional observations from a re-analysis of the deposited data

How the results depend on the processing

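Of 540 recomputed log2 fold changes of members, 527 kept their direction and their side of the call thresholds, and all exceptions came with library size as the only scaling or with glmTreat, which tests against a log2 fold change of 1. With library size alone the difference of CoCl2 from OD turned to -0.35 for NFKB2, -0.13 for REL and -0.037 for RELA. After CoCl2, RELA (0.63), NFKBIA (0.97) and NFKBIB (0.84) were then under the fold threshold, and NFKB1 (-1.11) and NFKBIE (-1.25) passed it. Between the compounds NFKBIA (0.66) and NFKBIB (0.95) were under it and TNFAIP3 (-1.12) passed it. Of the members called between the compounds 25% were then higher after CoCl2, in place of 60%. The medians of the 4 pathway lists fell there too, to -0.73 (IKK and canonical upstream), -0.62 (non-canonical), -0.072 (other regulators) and -0.59 (targets). With glmTreat, 3 members were called between the compounds, without RELB and NFKBIE (adjusted p = 0.1815 and 0.1434), and after OD 3 pathway genes in place of 6 and 965 of all genes in place of 2113. With at least 10 counts in every library, 1134 genes were called after OD. The adjusted p alone gave 9 members after CoCl2, 9 after OD and 10 between the compounds. It gave 42, 36 and 42 pathway genes in place of 18, 6 and 17, and 13260, 10466 and 13311 of all genes in place of 6891, 2113 and 6580. Without any 1 library 4, 0 and 5 members were called, as with all 9. The causes of these shifts were not tested. DESeq2, the 6 libraries alone, RLE and upper-quartile scaling, no filter and the stricter filter changed no member's call. By the adjusted p alone, small changes did move across the threshold: RELB after CoCl2, REL and NFKBIB after OD, and NFKB1 and NFKB2 between the compounds. With library size alone some larger changes did not pass either. These were REL after CoCl2 (edgeR adjusted p = 0.09197), and REL (0.1668) and RELA (0.5158) between the compounds.

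No strong link between libraries of the same replicate number was seen, and a weak one was not tested. Deviations of same-numbered libraries correlated at -0.0049 to 0.038, and those of other pairs at -0.047 to 0.025. With the replicate block 4, 0 and 5 members and 6901, 2115 and 6568 of all genes were called, and no member's call changed. The members had at least 123 counts in each library, and TNF and IL1B had at most 7 and 6.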
